A study of Homo sapiens with 3 samples.

Results

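Chromosome 22 is described here through every deposited ChIP-seq (chromatin immunoprecipitation and sequencing) peak that lies on it. These were 662 of 21555 XPB peaks (3.07%) and 441 of 14570 XPD peaks (3.03%), or 1103 of 36125 in all. The chromosome was chosen because its number of peaks per Mb, counted from its first to its last peak, was the highest of the 22 autosomes. Its density is therefore given as a description, as are the other measures of the same peaks, and no test is attached to any of them. The study mapped the proteins in HT1080, a human fibrosarcoma cell line, here grown in MEM-alpha medium with 5% serum, and its 3 samples were 1 XPB ChIP, 1 XPD ChIP and 1 input library. Each ChIP used its own rabbit polyclonal antibody, the input used none, and all 3 came from nuclei crosslinked with 5% formaldehyde. The protocol text given with each sample names a mouse monoclonal antibody to CSB, another repair protein, instead, and the samples' own antibody fields were followed. With 1 library for each protein there was no replicate, so the intervals below cover counting error only. They also treat peaks as independent of each other, although many lay close together.

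TFIIH, whose helicase subunits are XPB and XPD, is a general transcription factor that opens DNA at the start sites of genes read by RNA polymerase II. The same complex opens the DNA around a lesion during nucleotide excision repair. Human chromosome 22 is acrocentric: its short arm consists of repeats and ribosomal RNA gene arrays that the hg19 build leaves almost entirely unsequenced, and its long arm is rich in genes and in G and C bases. No hg19 sequence or gene annotation was used here, so peaks are named by position and not by gene. All positions are 1-based hg19 coordinates.

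On the density that chose it, chromosome 22 stood just ahead of chromosome 19, followed by chromosome 17. It held 19.6 XPB peaks per Mb (exact Poisson 95% interval 18.2 to 21.2) over 33.7 Mb, chromosome 19 held 18.3 and chromosome 17 held 16.4. For XPD it held 13.09 per Mb (11.9 to 14.4), chromosome 19 held 13.07 and chromosome 17 held 11.4. The median of the other 21 autosomes was 7.29 for XPB and 5.03 for XPD, and their lowest value, on chromosome 4, was 2.72 and 1.75. Peak intervals covered 1.81% of the span for XPB and 1.396% for XPD, again the highest of the 22 autosomes in both lists. The XPB to XPD ratio of peak numbers was 1.501, inside the range of 1.37 to 1.70 over all autosomes.

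The first place depended on what the peaks were divided by. The first XPB peak began at 17394676 and the last ended at 51131615, so a large part of the numbered chromosome before the first peak was left out of the span. Counted from position 1, the density fell to 12.9 XPB and 8.63 XPD peaks per Mb, and chromosome 22 ranked 3 in both lists, after chromosome 19 (18.2 and 12.998) and chromosome 17 (16.4 and 11.4). Counted per 1 Mb window that held any peak, it led for XPB (19.5 against 19.2 on chromosome 19) and came second for XPD (12.97 against 13.7). Per 100 protein-coding genes, as RefSeq lists them by chromosome for GRCh38.p14 and without use of their coordinates, it held 147 XPB and 97.8 XPD peaks. Chromosome 3 alone was higher by that count, with 227 and 159. Chromosome 19, with 1451 coding genes against 451 on chromosome 22, held 74.2 and 52.9.

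**Figure D1:**
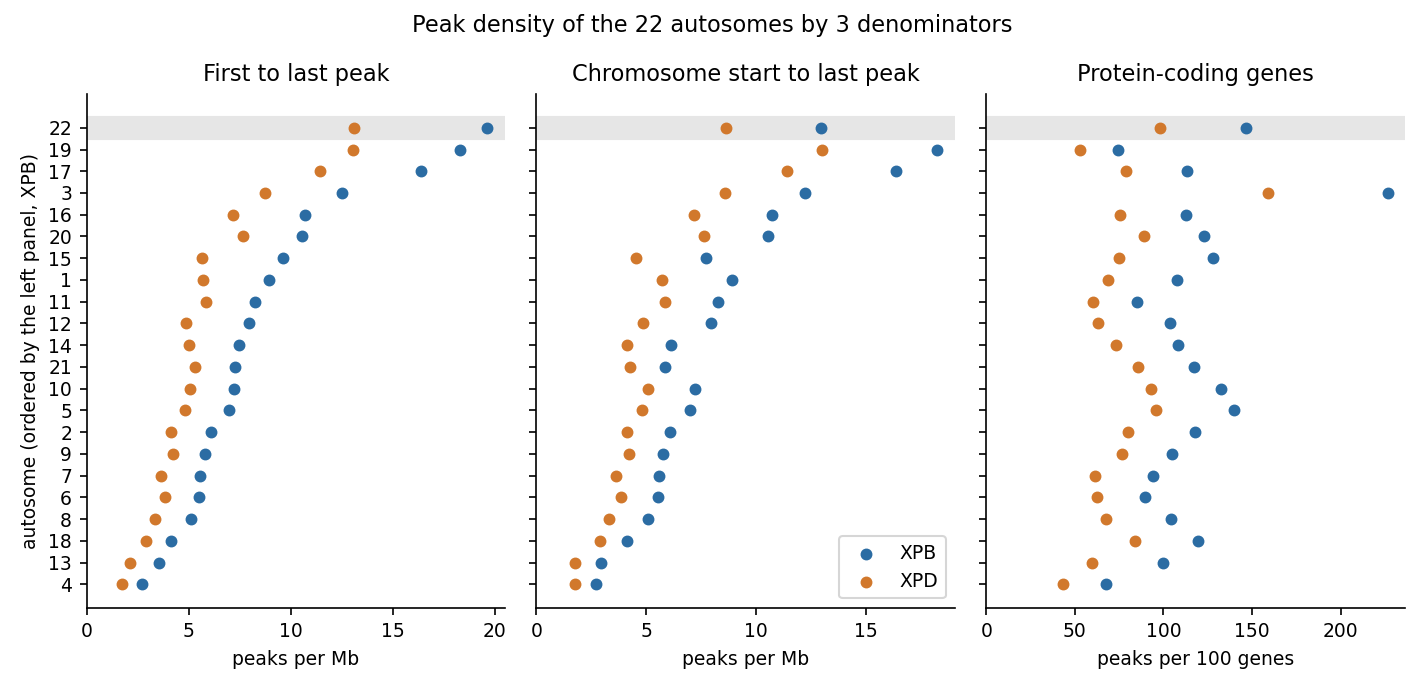
Peaks per Mb from first to last peak (left), peaks per Mb from position 1 to the last peak (middle) and peaks per 100 protein-coding genes (right) for the 22 autosomes, with XPB in blue and XPD in orange and chromosome 22 shaded. Chromosome 22 leads in the left panel with 19.6 XPB peaks per Mb, has rank 3 in the middle panel with 12.9 and rank 2 in the right panel with 147 per 100 genes.

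Stronger peaks were also dense on the chromosome, although it was then not the first. At scores of 300 or more it held 2.67 XPB peaks per Mb, behind 3.02 on chromosome 19, and 1.37 XPD peaks per Mb, behind 1.78 on chromosome 17 and 1.77 on chromosome 19. The score is the caller's, taken as -10 times the log10 of its p-value, and no listed peak scored under 150. Of the chromosome 22 peaks, 90 XPB peaks reached 300 (13.6%, exact binomial 95% interval 11.1 to 16.4), where 14.3% of the whole XPB list did. For XPD it was 46 (10.4%, 7.74 to 13.7), where 11.9% of the whole list did. Both shares lie near those of the whole lists. Among the 100 highest scores of each list, chromosome 22 held 3 for XPB and 2 for XPD.

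Along the chromosome the peaks were uneven but rarely absent. It spanned 35 windows of 1 Mb from 17000001, with a mean of 18.9 XPB summits per window (SD 12.5) and 12.6 XPD summits (SD 9.46). Windows with at least 5 times the mean density of all chromosomes, which was 7.23 per Mb for XPB and 4.89 for XPD, numbered 5 for XPB (14.3%, where 2.35% of all autosomal windows reached it) and 4 for XPD (11.4%, where 2.6% did). At least 3 times the mean was reached by 11 windows for XPB (background 9.31%) and by 14 for XPD (background 9.7%). Since density chose the chromosome, these counts only describe where on it the peaks lay. The numbers of XPB and XPD summits followed each other over the 35 windows with a Spearman's rho of 0.94 and a Pearson's r of 0.92. That rho was the second highest of the 22 autosomes, and the windows share chromatin and, within each list, a library.

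The proximal part of the long arm held none of the fullest windows, although peaks were sparser past 48000001. From the first peak to 29000000 no window held more than 21 XPB or 16 XPD summits. Then 36 XPB and 39 XPD summits fell between 30000001 and 31000000, which was 1 of 3 windows in which XPD outnumbered XPB. The others were the thin windows from 33000001 to 34000000, with 2 XPB and 4 XPD summits, and from 34000001 to 35000000, with 0 and 1. For XPD the window of 39 summits ranked 17 of all 2804 autosomal windows, and for XPB it ranked 67.

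The richest stretch ran from 36000001 to 40000000. Its 4 windows held 41, 30, 43 and 44 XPB summits and 29, 20, 26 and 31 XPD summits, against 10 and 4 in the next window. The window with 44 XPB summits, from 39000001 to 40000000, was the fullest of the chromosome for XPB. It ranked 31 among all autosomal windows for XPB and 34 for XPD. Further out there were 39 XPB and 24 XPD summits between 41000001 and 42000000, and 41 and 24 between 46000001 and 47000000.

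Between 48000001 and 50000000 the peaks almost stopped. The window from 48000001 to 49000000 held 2 summits of each list and the next window held none. The gap between neighbouring summits of either list there, from 48189182 to 50206696, was 2.02 Mb and was the longest of the chromosome. An XPB gap of 2.18 Mb, from 33238348 to 35418841, contained 2 XPD summits, at 33876091 and 34542113. Past 50000001 lay 15 XPB and 11 XPD summits.

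**Figure D2:**
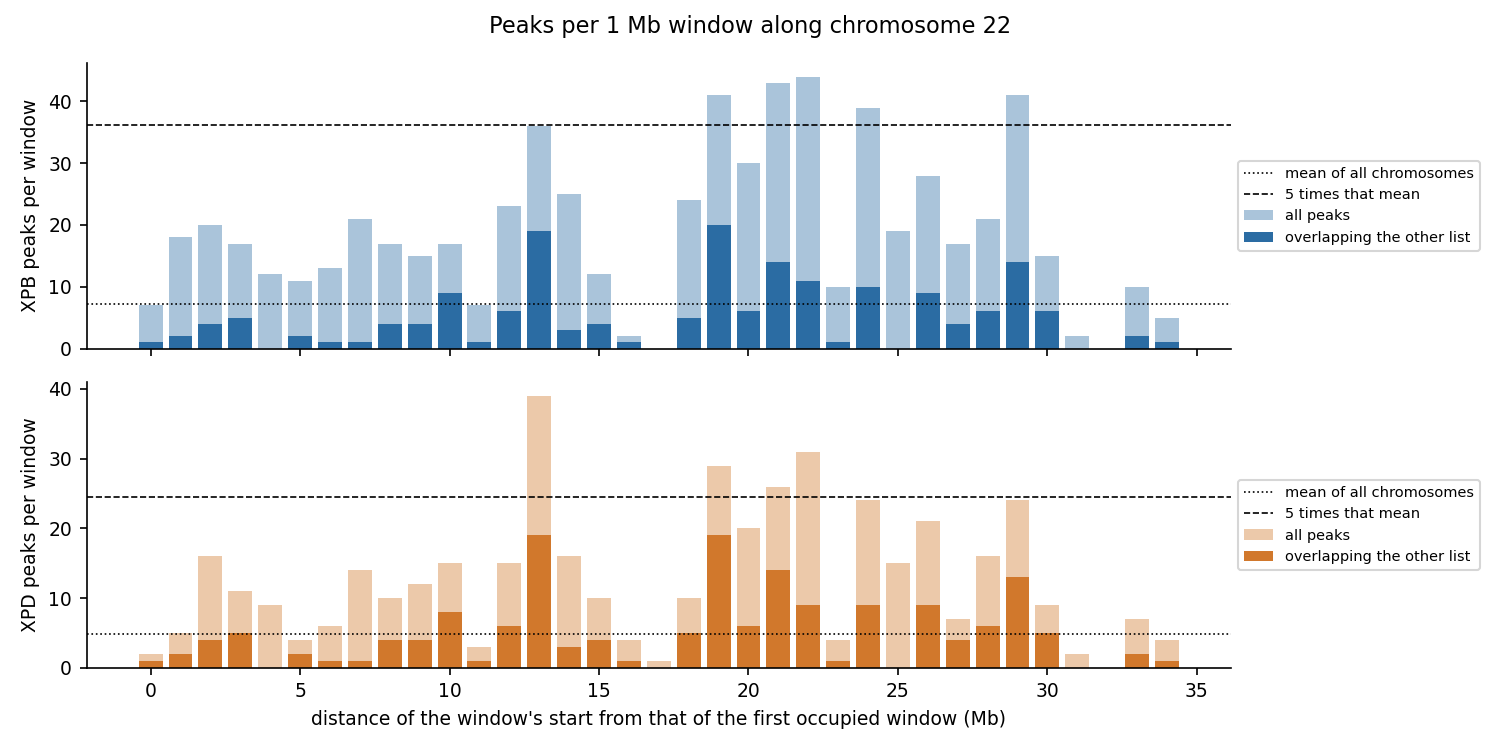
XPB (top) and XPD (bottom) peaks per 1 Mb window along chromosome 22, plotted by distance from the first occupied window, with the peaks that overlap the other list in the darker shade. The dotted line is the mean of all chromosomes (7.23 and 4.89 per Mb) and the dashed line 5 times that mean. The tall bar at 13 Mb is the window of 36 XPB and 39 XPD peaks, and the bar at 25 Mb has no dark part in either panel.

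Neighbouring peaks lay close to each other. The median distance between adjacent summits was 20726 bp for XPB and 23995.5 bp for XPD, against medians of 36299 and 49901 bp for the other 21 autosomes. Another XPB summit lay within 10 kb of 325 of the 662 XPB summits (49.1%, 45.2 to 53.0), where 41.8% of the whole list had such a neighbour. For XPD the figure was 207 of 441 (46.9%, 42.2 to 51.7), where 34.5% of the whole list had one. Chromosome 3 was the highest autosome in both lists (58.0 and 50.1%). Chromosome 22 ranked 2 for XPD and 4 for XPB, with 49.1% against 52.6% on chromosome 19. Spacing and density come from the same positions, so the closeness of the peaks is not independent of the choice of the chromosome.

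Strings of peaks were found at 16 places, which are runs of 4 or more summits of a list each within 10 kb of the next, joined where they lay within 50 kb. Such runs held 14.8% of the XPB summits and 12.5% of the XPD summits of chromosome 22, against 12.3 and 8.84% on the other autosomes, and the longest of the other autosomes, with 22 XPB and 17 XPD summits on chromosome 5, exceeded those here. The most populated ran over 127 kb from 30592016 to 30718775 and held 24 XPB peaks (3.63% of those on the chromosome) and 20 XPD peaks (4.54%). Of these, 14 XPB and 14 XPD peaks overlapped the other list. Heights there, counted as fragments piled up at the summit, ran from 9 to 41 for XPB and from 9 to 27 for XPD. The bin of 100 kb from 30600001 to 30700000, with 21 XPB and 14 XPD peaks, ranked second of 27857 autosomal bins by peaks of both lists. In all, 22 of 339 bins on chromosome 22 held 10 or more peaks (6.49%), where 1.91% of all autosomal bins did.

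The proximal end of this stretch held several of the tallest summits of the chromosome. The XPB peak from 30592032 to 30593287 had 41 fragments, and its XPD partner had 18. A group of 5 XPB peaks followed between 30600773 and 30609499, with heights of 26, 27, 9, 39 and 23, and scores of 1327.2, 694.5, 161.7, 1230.9 and 365.0. Each of the 5 overlapped an XPD peak. The 4 XPD peaks there had heights of 27, 20, 18 and 13 and scores of 732.0, 336.0, 281.1 and 226.9. The lowest XPB peak of the group, with 9 fragments, was under the same XPD peak of 2130 bp as the neighbour with 39.

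Farther along, the stretch was lower. Its run of 12 XPB summits from 30620675 to 30654866 was the longest run of either list on the chromosome, with heights of 9 to 19. The first 4 of the 12 peaks had no XPD partner, and the last 2, at 30651423 to 30653891 and at 30653972 to 30654866, both had one. At the former site the summits of the lists lay 3 bp apart, with 19 XPB and 15 XPD fragments and scores of 1094.0 and 564.9. The XPD list had a run of 8 summits from 30633462 to 30654816, of which 7 overlapped XPB peaks.

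Other strings differed in how far the lists coincided. At 39704349 to 39721454, all 6 XPB peaks and 5 of the 6 XPD peaks overlapped the other list, within 17.1 kb. At 46465351 to 46487964, 5 of 8 XPB and 5 of 5 XPD peaks did, led by an XPB summit of 28 fragments and an XPD summit of 20. Between 36724644 and 36802286, 8 of 14 XPB and 7 of 8 XPD peaks did. At its start lay a site of 5135 bp, from 36724552 to 36729686, the widest joined interval of the chromosome, in which 3 XPB and 2 XPD peaks merged.

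No peak was shared in 2 strings. How often this held for strings on the other autosomes is not given here. From 24486562 to 24550864 there were 4 XPB peaks and then 4 XPD peaks, none shared. The XPB peaks ended at 24508927 and the XPD peaks began at 24539941. They were thus separate runs, each without a peak of the other list, and only the joining within 50 kb made them a string. From 37862049 to 37883217 there were 4 XPD peaks with heights of 11, 12, 9 and 16 and no XPB peak, and the nearest XPB summit was 10572 bp away. These XPD peaks scored 155.7 to 192.8, close to the lowest listed score. On the other autosomes, 77.9% of XPD peaks at scores under 170 overlapped no XPB peak. From 170 to under 200 it was 71.6%.

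Of all peaks on the chromosome, 176 XPB peaks (26.6%, 23.3 to 30.1) overlapped an XPD peak by 1 bp or more, where 26.6% of the whole XPB list did. The same held for 169 XPD peaks (38.3%, 33.8 to 43.04) against the XPB list, where 38.7% of the whole list did. Both intervals included the share of the whole list, which itself contains these peaks. A difference from the rest of the series was not tested. Merged over both lists, the peaks formed 924 separate sites, of which 166 held both proteins, 486 XPB alone and 272 XPD alone. An XPD peak spanned 2 XPB peaks in 10 cases, and an XPB peak spanned 2 XPD peaks in 3.

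The overlap was greater at higher scores. Among XPB peaks it was 12.3% (8.13 to 17.6, n = 203) at scores under 170, 15.2% (n = 171) from 170, 32.3% (n = 198) from 200 and 67.8% (57.1 to 77.2, n = 90) from 300. Among XPD peaks the same classes gave 20.1% (13.9 to 27.6, n = 144), 31.7% (n = 126), 46.4% (n = 125) and 91.3% (79.2 to 97.6, n = 46). In each of the 8 classes the interval for chromosome 22 included the pooled value of the other autosomes, which was 73.3% for XPB and 86.9% for XPD at 300 or more. By median, shared XPB peaks scored 247.1 with 12 fragments at the summit, and those of the XPB list alone scored 181.0 with 10. For XPD the medians were 222.5 and 13 for shared peaks, and 175.2 and 12 for the others.

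**Figure D3:**
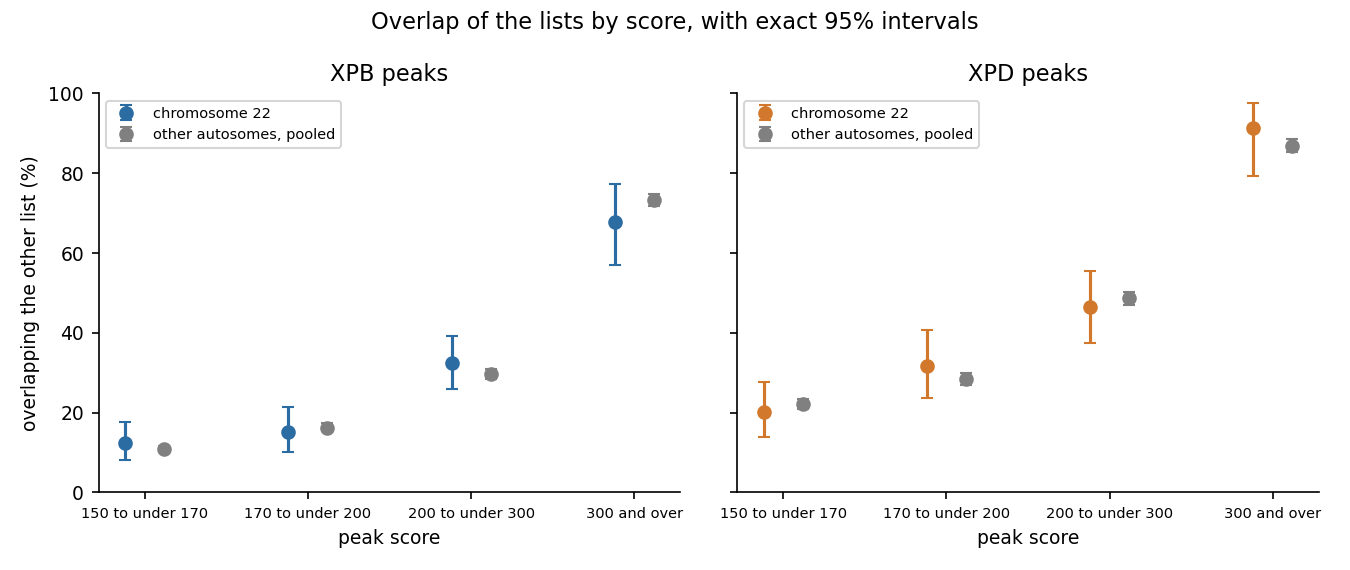
Percentage of XPB (left) and XPD (right) peaks that overlap the other list, by score class, for chromosome 22 (coloured) and the other autosomes pooled (grey), with exact binomial 95% intervals. On chromosome 22 the share goes from 12.3 to 67.8% for XPB and from 20.1 to 91.3% for XPD, and each interval includes the grey value.

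By position the overlap was less even. In blocks of 5 Mb it was lowest from 20000001 to 25000000, with 9 of 74 XPB peaks (12.2%) and 9 of 44 XPD peaks (20.5%). The median XPB score there was 174.2, the lowest of the 8 blocks. The median XPD score there was 183.9, inside the range of 171.3 to 197.6 of the other blocks. It was highest for XPB from 30000001 to 35000000 (27 of 75, 36%) and for XPD from 45000001 to 50000000 (24 of 51, 47.1%). The part of the scores in the differences between blocks was not tested.

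A window rich in both lists had no shared peak. From 42000001 to 43000000 there were 19 XPB and 15 XPD peaks and none overlapped. Of the 264 autosomal windows that held at least 15 of each, this was the only one without an overlap, and the others on chromosome 22 had between 12 and 52.9% of their XPB peaks shared. The minimum of 15, which is the window's own XPD count, was set after the window had been seen. Below that minimum, the window from 21000001 to 22000000 had 12 XPB and 9 XPD peaks and none shared either. The closest XPB and XPD summits in the window from 42000001 were 1125 bp apart. Its peaks were weak, with median scores of 172.0 for XPB and 174.0 for XPD, but 4 XPB and 5 XPD peaks scored 200 or more and the highest XPB score was 434.5. The neighbouring window from 43000001 to 44000000 had 9 of 28 XPB and 9 of 21 XPD peaks shared.

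Tall summits made up a small share of the peaks on chromosome 22. The median height was 11 fragments for XPB (quartiles 9 and 13) and 12 for XPD (10 and 15), and the medians of the other autosomes were 11 to 12 and 12 to 13. Summits of 20 fragments or more numbered 27 for XPB (4.08%, 2.70 to 5.88), where 6.64% of the whole list reached 20. For XPD they numbered 15 (3.40%, 1.92 to 5.55), where 8.74% of the whole list did. The XPD share was the lowest of the 22 autosomes, the others ranging from 4.65 to 11.4%, and the XPB share ranked 20. Among peaks just past the threshold, at scores of 150 to 170, the mean height was 9.83 ± 2.16 fragments for XPB (SD, n = 203 peaks) and 10.6 ± 2.52 on the other autosomes pooled (n = 6516). For XPD it was 11.1 ± 2.36 (n = 144) and 12.3 ± 2.96 (n = 4831). The XPD mean was the lowest of the 22 autosomes, and the XPB mean was lower only on chromosome 19 (9.61).

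**Figure D4:**
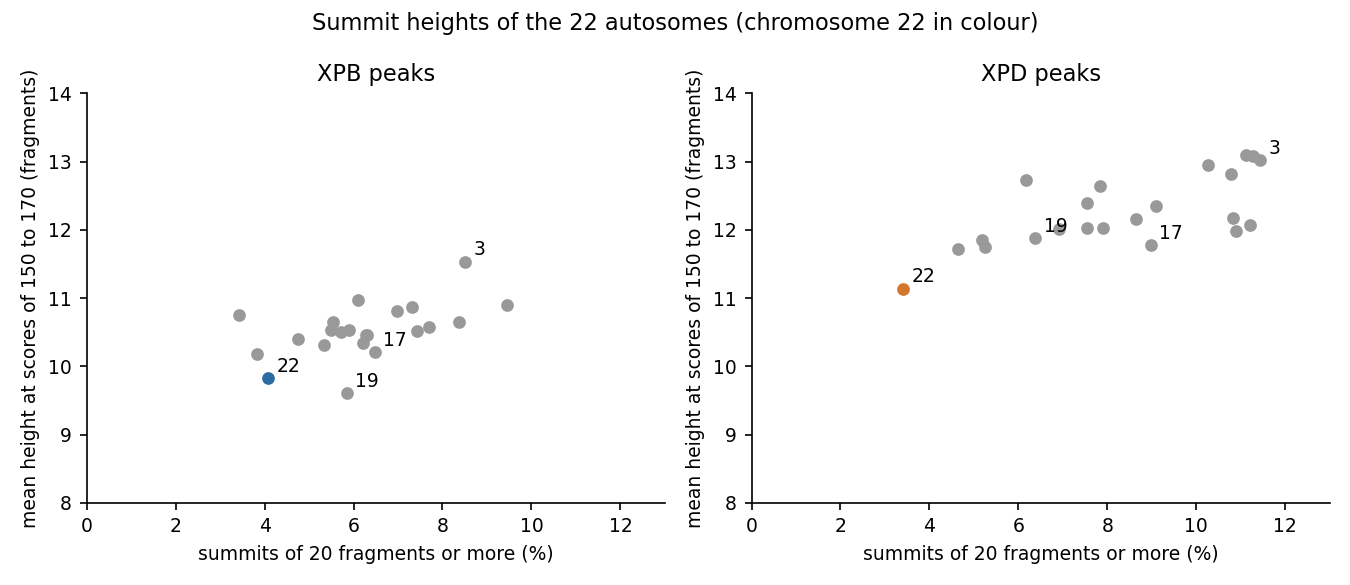
Mean summit height of peaks scoring 150 to 170 (vertical axis, starting at 8 fragments) against the percentage of summits with 20 fragments or more (horizontal axis) for the 22 autosomes, XPB left and XPD right, each point being 1 autosome. Chromosome 22, in colour, lies at 9.83 fragments and 4.08% for XPB and at 11.1 fragments and 3.40% for XPD, the lowest point of the right panel on both axes.

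The peaks were somewhat wide. Median width was 872.5 bp for XPB (quartiles 696 and 1091.8), against 810 bp as the median of the other autosomes, and 998 bp for XPD (794 and 1242), against 926 bp. The XPD median was exceeded on chromosome 3 (1038 bp) alone. The XPB median ranked 4, after chromosomes 3 (898 bp), 19 (892 bp) and 17 (876.5 bp), and chromosome 16 had the same value. Peaks of 2000 bp or more were few: 5 for XPB (0.755%, where 1.18% of the whole list was as wide) and 12 for XPD (2.72%, where 2.27% was). Of these 17 broad peaks all but 1 XPB and 1 XPD peak overlapped the other list. The share among peaks of that width elsewhere is not given here. The broad peaks had median scores of 1020.9 for XPB and 399.8 for XPD. At scores of 300 or more, 73.3% of XPB and 86.9% of XPD peaks on the other autosomes overlapped. Over all peaks of the chromosome, median scores were ordinary, at 190.5 for XPB and 184.7 for XPD, which ranked 7 and 10 of the 22 autosomes.

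Score, height and width did not order the peaks alike. Across the 662 XPB peaks Spearman's rho was 0.48 between score and height, 0.45 between score and width and -0.14 between height and width, and across the 441 XPD peaks it was 0.48, 0.46 and -0.13. These values describe peaks of 1 library each, in which all were selected by score. The widest XPD peak, from 38707968 to 38711708, scored 621.0 over 3741 bp with only 11 fragments at its summit, and its XPB partner, also of 11 fragments, had its summit 1419 bp away. At the other extreme, the XPD peak from 39101144 to 39101669 was 526 bp wide, had 24 fragments and scored 253.7, with no XPB peak over it. The XPB peak from 27503680 to 27504272 reached 21 fragments over 593 bp and scored 169.5, which put it at 14943 in the list.

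A single site stood far above the others. The peak from 43010855 to 43012035 had 313 XPB fragments, and the XPD peak over it, from 43010701 to 43012051, had 200. Both scored 3100, the highest value either list holds, and their summits lay 28 bp apart. In all, 11 XPB and 8 XPD peaks of the lists held that score. It was also the only chromosome 22 site among the 100 tallest summits of either list. The next summits on the chromosome had 41 fragments for XPB and 27 for XPD.

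After that site, the tallest XPB summits were at 30592032 (41), 30605701 (39), 36727238 (31), 46465419 (28), 30602672 (27) and 30600773 (26), given by the start of the peak with the height in fragments. The tenth place was shared by 8 XPB summits of 21 fragments, of which 5 overlapped an XPD peak and 3 did not. Of the 9 taller ones, 5 lay in the string between 30592016 and 30718775, and 8 overlapped an XPD peak. The exception, from 43355708 to 43356541 with 23 fragments, had its nearest XPD summit 22342 bp away. The tallest XPD summits after the leading site were at 30601153 (27), 36726799 (26), 20885369 (24), 39101144 (24) and 43076335 (23). Of the 10 tallest in the XPD list, 7 had an XPB partner.

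By score the order was different, and all 10 of the highest scores in each list were of shared peaks. For XPB they included the peak from 19867599 to 19870346, with 21 fragments over 2748 bp and a score of 1029.4. The XPD peak there also had 21 fragments and scored 697.7, with a summit 970 bp away. For XPD the second score was 1151.8, from 36726799 to 36729686, a peak of 2888 bp with 26 fragments whose XPB partner had 31 and scored 1020.9. The XPD peak from 27870463 to 27873614 scored 713.0 over 3152 bp and lay across 2 XPB peaks. Of the 9 XPB summits taller than 21 fragments, 6 were also among the 10 highest scores, as was 1 of the 8 of that height. Of the 10 tallest XPD summits, 4 were.

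Some strong peaks were of a single list. At scores of 300 or more, 29 of 90 XPB peaks and 4 of 46 XPD peaks had no partner. On the other autosomes 26.7% of 2981 XPB and 13.1% of 1678 XPD peaks of that score had none, and the XPD list is the shorter on every autosome. The highest of the XPB ones ran from 40742070 to 40743402, with 16 fragments and a score of 507.8, and its nearest XPD summit was 81564 bp away. The next, from 47549737 to 47550998, had 21 fragments and scored 452.8. The XPB peak from 30819498 to 30820529 scored 441.6 and had an XPD summit only 796 bp away, outside the peak. On the XPD side the peak from 43411263 to 43412026 had 21 fragments and scored 414.6, with an XPB summit 1366 bp away. The following XPD scores were 346.1 at 24637903 and 333.6 at 24539941. Peaks of a single list often had a summit of the other list not far off: within 10 kb for 163 of 486 XPB peaks (33.5%, 29.4 to 37.9) and 127 of 272 XPD peaks (46.7%, 40.6 to 52.8). On the other autosomes pooled this held for 28.5 and 36.4%, on chromosome 19 for 39.4 and 50.1% and on chromosome 17 for 33.1 and 41.1%.

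By their median, paired summits lay farther apart on chromosome 22 than on any other autosome, a difference that was not tested. A pair is an XPB and an XPD peak, each of which overlaps the other more than any other peak. Among the 168 pairs, the median distance was 168 bp (order-statistic 95% interval 113 to 231, quartiles 40.75 and 434), the highest of the 22 autosomes, whose others ranged from 48 to 160 bp. Within 100 bp lay 68 of the 168 (40.5%, 33.0 to 48.3), the lowest share of the 22 autosomes, and 50.9% (49.5 to 52.2) did so on the other autosomes pooled. Chromosomes 19 and 17 gave 49.8 and 52.5%. Chromosome 3 was close to chromosome 22, with a median of 160 bp and 43.2% within 100 bp. Within 250 bp its share, 57.6%, was below the 61.9% of chromosome 22, which ranked 21 by that measure, and 2 and 3 by the lower and upper quartile of the distance. Distances over 1000 bp were found for 6 pairs, with a maximum of 1880 bp.

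The distance differed with the height of the summits. Where the lower summit of the pair had under 10 fragments, the median distance was 344 bp on chromosome 22 (n = 42) and 276 bp on the other autosomes (n = 957). With 10 to 12 fragments it was 121 bp (n = 67) and 153 bp (n = 1928), and with 13 or more it was 70 bp (n = 59) and 44 bp (n = 2467). Chromosome 22 was thus the higher in 2 of the 3 classes, and its interval included the pooled value of the others in the lowest and the middle class and, from 40 to 153 bp, in the highest. Chromosomes 19 and 17 had medians of 180 and 369 bp in the lowest class, 169 and 168 bp in the middle and 43 and 28 bp in the highest. Of the 27 pairs with both scores under 200, 3 lay within 100 bp (11.1%, 2.35 to 29.2), and 42.2% of 865 did on the other autosomes. The median distance of these pairs was 269 bp (137 to 525), and on the other autosomes it was 137 bp, at the lower end of that interval. With both scores of 200 or more the median was 91 bp (53 to 180, n = 80) against 73 bp, and 51.2% (39.8 to 62.6) lay within 100 bp against 56.4%, so both intervals included the value of the other autosomes. Pairs with both scores of 300 or more had a median distance of 165 bp (37 to 265, n = 27) on chromosome 22 and 48 bp on the other autosomes (n = 1007). Within 100 bp lay 40.7% of them (22.4 to 61.2) on chromosome 22 and 64.0% on the other autosomes. In that class the interval of the median included the value of the other autosomes, and the interval of the share did not. The libraries were selected for fragments of 400 to 700 bp, the scale against which these distances are to be read.

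**Figure D5:**
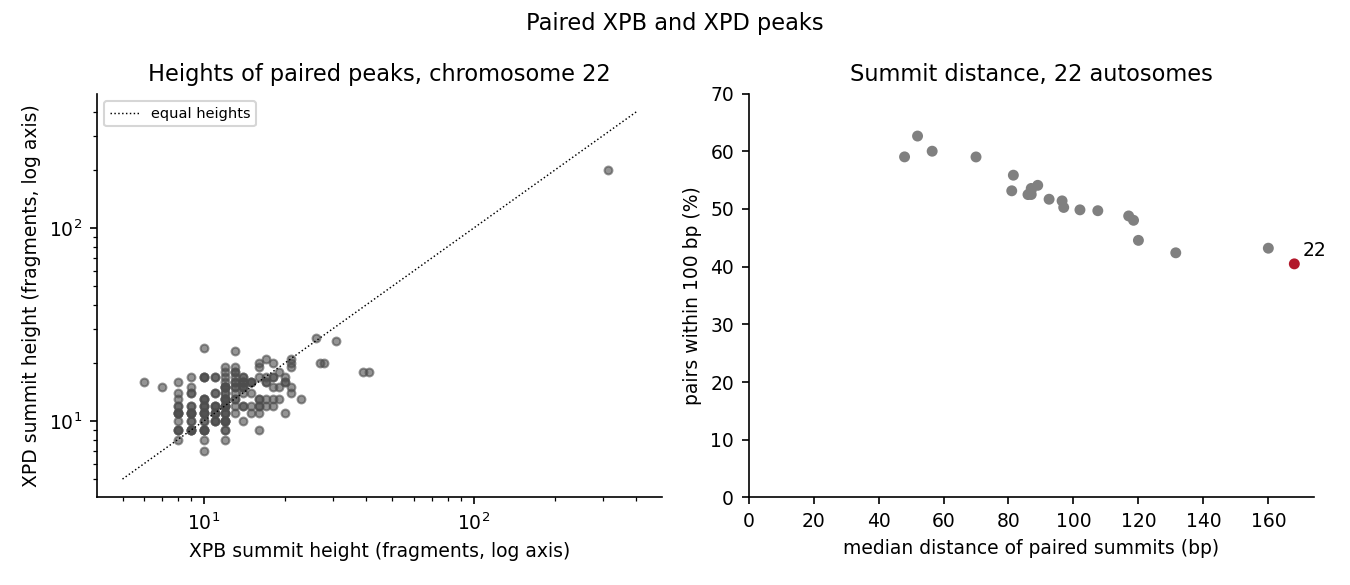
Left, XPD against XPB summit height for the 168 paired peaks of chromosome 22, both on log axes, with a dotted line of equal heights. Right, for each of the 22 autosomes, the percentage of paired summits within 100 bp against their median distance, with chromosome 22 in red at 168 bp and 40.5%. The point at the top right of the left panel is the site of 313 XPB and 200 XPD fragments.

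Heights of paired peaks were related, with a Spearman's rho of 0.53 over the 168 pairs, in the range of 0.47 to 0.69 of the other autosomes. XPD was the taller in 89 pairs, XPB in 60, and 19 were equal. As a log2 ratio, XPD height over XPB height had a median of 0.10 (quartiles -0.15 and 0.32), without adjustment for depth, which the files do not give. Among the 30 pairs whose summits both reached 15 fragments, the median log2 ratio had the opposite sign, at -0.085. The counting interval of their log2 ratio included the median of all 168 pairs in 27. The 3 that did not were the leading site, with a log2 ratio of -0.65 (-0.91 to -0.39), and 2 peaks in the string that begins at 30592016. These were the XPB peaks at 30592032, with 41 and 18 fragments and a log2 ratio of -1.19 (-2.07 to -0.36), and at 30605701, with 39 and 18 and a log2 ratio of -1.12 (-2.01 to -0.28). Of the pairs between them, 30600773 had 26 XPB and 27 XPD fragments (log2 ratio 0.05) and 30602672 had 27 and 20 (-0.43). The next pair, at 30608270, had 23 and 13 (-0.82). Among the 30 pairs, the highest ratios were at 37827757 (16 and 20 fragments, 0.32), 39714931 (17 and 21, 0.30) and 47186474 (16 and 19, 0.25). Their intervals all included the median of all 168 pairs. The pairs were picked as extremes and their intervals were not adjusted for that. Pairs with a summit under 15 fragments reached higher ratios, such as 1.42 at 18966104 (6 and 16 fragments) and 1.26 at 20885299 (10 and 24).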

How the data were processed

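The submitters' processing notes name Bowtie 0.12.7, a read aligner, MACS 1.4, a peak caller, and the hg19 build. The control, the caller's settings and the read depth of the libraries are not given in the sources used here, and no input peaks were analysed here. Per the usual layout of the caller, the deposited score of a peak is -10 times the log10 of its p-value (150 to 3100), and the deposited summit signal is the pileup height in fragments, not scaled to depth, so the lists were not compared in absolute level. Each list comes from a single library.

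From these values, peaks were counted per chromosome, per 1 Mb window (by summit) and per 100 kb bin. Overlap meant at least 1 bp, and a pair was an XPB and an XPD peak with no larger overlap elsewhere. Intervals are exact binomial, exact Poisson or order-statistic at 95%. Peaks to be named were the 10 tallest and the 10 highest-scoring of each list. Also named were the 5 tallest and 5 highest-scoring without a partner, and the 3 widest. So were the 3 most extreme height ratios at each end, among pairs with 15 fragments or more at both summits. The fullest and emptiest windows, and the longest gaps and runs, were named too. The joined strings, the 100 kb bins, the windows with 15 of each list and the count per coding gene were added after values were seen. The chromosome and these rules were chosen with earlier results of these data known. The planned comparison with transcription start sites was not run for want of an hg19 annotation. The overlap and pairing functions were tested on the XPB peaks of chromosome 22 against made-up lists with known partners. All other peaks of those lists were placed far from any XPB peak, so accidental overlaps were not tried. The neighbour, cluster and window functions were tested on a few set positions. Python 3.11.15, numpy 2.4.6, pandas 2.3.3, scipy 1.17.1 and matplotlib 3.10.9 were used.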

Additional observations from a re-analysis of the deposited data

How the results depend on the processing

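Of 72 alternatives to 18 results, 27 stayed within the interval of the reported value (or at the same place among the autosomes, or within 1.5 times a window's count) and 45 did not. The density of XPB and XPD (19.6 and 13.1 per Mb) was 12.9 and 8.63 from position 1, 8.54 and 5.07 at scores of at least 200, 2.67 and 1.37 at scores of at least 300, and 13.5 and 9.35 with summits within 10 kb counted as 1 cluster. The place of chromosome 22 by XPB density was 3 from position 1, 2 at scores of at least 200 or 300, and 2 per coding gene, the last chosen after the data were seen. By XPD density it was 3 from position 1 and at scores of at least 300, and 2 in each of the other 6 alternatives run (occupied windows, gaps of 2 Mb left out, scores of at least 200, clusters, the densest window left out, coding genes). The overlap of XPB and XPD peaks (26.6 and 38.3%) was 20.5 and 30.8% where 50% of both peaks had to overlap, 15.9 and 23.8% where summits had to lie within 250 bp, 33.5 and 33.3% with lists cut to equal length, 31.1 and 63.0% when both lists were limited to scores of 300 and over, and, for XPD, 47.4% when limited to 200 and over. The shares with a neighbour within 10 kb (49.1 and 46.9%) were 31.4 and 29.0% within 5 kb, 68.6 and 66.9% within 20 kb, and 37.2 and 32.2% at scores of at least 200. At scores of at least 200 the medians for XPB and XPD were 12 and 14 fragments for height, 256.6 and 247.1 for score, and 1016.5 and 1231 bp for width, the fullest windows held 29 and 24 peaks, and the median distance of paired summits was 91 bp. The cause was not tested, and the limit is itself on the score. With both lists cut to scores of at least 300 before pairing, the median distance of paired summits was 168.5 bp (n = 28). Where 50% of both peaks had to overlap, it was 118 bp. Both values lay within the interval of the reported 168 bp. Paired heights, with a rho of 0.53, gave a Pearson's r of 0.71 on the log2 scale. Leaving out the densest window kept the shares of overlap and of neighbours and the medians of height, score and width within their intervals, and was not run for the distance or heights of pairs. The setting for transcription start sites was not run. The floor at a score of 150, the unknown depth and the single library for each protein limit how far a missing peak can be read as missing binding.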
